A study of Saccharomyces cerevisiae with 49 samples.

Results

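The 32 DNA repair and checkpoint genes described here were chosen by gene symbol in the platform annotation, from 6228 array features with 5540 named genes. They fell into 7 branches: mismatch repair, strand exchange, break end processing, joint molecule resolution, base excision, postreplication repair with translesion synthesis, and the checkpoint with clamp loading. The question was which of these branches follow the G1/S wave of transcription in budding yeast. Transcripts were measured on 49 arrays in 3 time courses after release from a G1 arrest. In the alpha-factor course, 1 culture of BY4741 bar1- cells, which lack the protease that degrades the mating pheromone, was held in G1 by alpha factor and sampled on 17 arrays between 0 and 150 min after release. In the cdc28 courses, cultures B and E of BY4741 cells with a temperature-sensitive cdc28 allele, given as cdc28-13 in the series text, were held in G1 by a shift to high temperature and released by cooling. This allele disables the cyclin-dependent kinase that drives entry into the cycle. Culture B was sampled on 16 arrays up to 225 min and culture E on 16 arrays up to 160 min. Every array set messenger RNA of synchronized cells (Cy5) against messenger RNA of unarrested mid-log cells of the same strain (Cy3). Strain, kind of arrest, temperature and culture cannot be told apart between the alpha-factor and the cdc28 courses.

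Repair proteins remove mismatched or damaged bases, rejoin broken chromosomes and bypass lesions that block a replication fork, and the checkpoint kinases hold the cycle while this is done. In budding yeast the transcription factors SBF and MBF switch on a large group of genes as cells pass from G1 into S phase, and many DNA replication genes belong to it. Repair by recombination acts mostly in S and G2, when a sister chromatid is present.

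A value is the log2 ratio of synchronized over mid-log cells, with each array centred on its median, so a value of 0 is the median of the array. It is called the mid-log level here, which assumes that the median transcript was at its level in the mixed mid-log population. Values of different genes do not compare their abundance. In synchronized bulk cultures, fewer cells that express a gene and less RNA in each cell cannot be told apart. Arrays held 4189 to 6110 values, and 21 to 32 of the 32 genes had a value on an array. The number of arrays limits the precision. AGA1, a pheromone-induced adhesin gene, stood at 5.37 at 0 min after alpha factor, against 1.47 in culture B and -0.285 in E. The culture B array at 135 min stood apart, with the fewest values (4189) and the widest spread (SD 0.920, against at most 0.784 on any other array). RAD50 (1.5), EXO1 (1.30) and REV1 (1.18) had their highest culture B readings on it, and RAD24 its lowest (-1.12). Results for culture B are also given without it where a call changed, and for some other members.

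**Figure D1:**
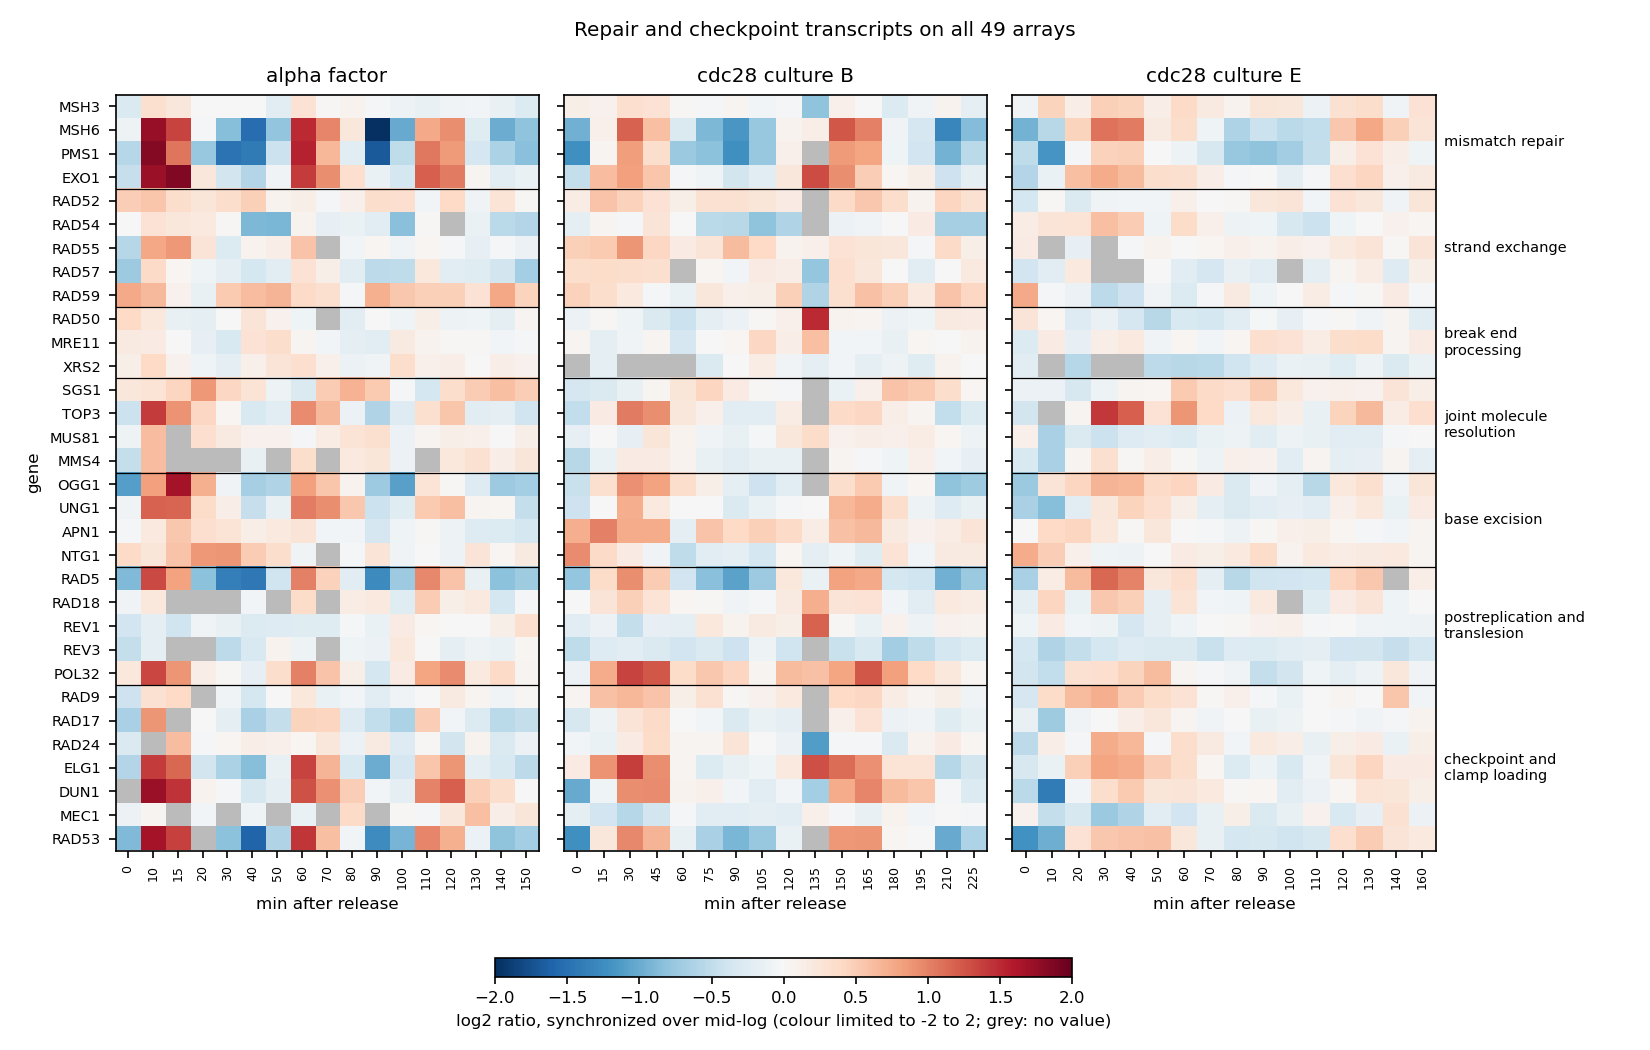
Log2 ratio of synchronized over mid-log cells for each of the 32 genes (rows, by branch) on each of the 49 arrays (columns, in min after release), with grey for no value. Bands of high values recur for MSH6, PMS1, EXO1, RAD5, ELG1 and RAD53, while most rows of strand exchange and break end processing stay near 0.

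Each course was fitted alone with limma, by a cosine and a sine term at the period of that course. The period was 53 min in the alpha-factor course, 122 min for culture B and 106 min for culture E, set on marker genes that include none of the 32. A gene was called periodic at a Benjamini-Hochberg adjusted p under 0.05 over all features of the course. It was said to follow the G1/S wave if its fitted peak also lay within 10% of the period of the mean peak of the G1/S markers, which came at 13.4, 35.9 and 43.1 min in the alpha-factor course, culture B and culture E. Amplitude is how far the fitted peak rises above the fitted mean in log2 units, and offset is the peak's distance from that marker mean in percent of the period, with a negative offset for an earlier peak.

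Genes of 6 branches followed the G1/S wave in at least 1 course, and the remaining branch, break end processing, had no such gene in any course. That branch had only 3, 2 and 3 tested genes in the alpha-factor course, culture B and culture E. A count of 0 there is near the background of all features given below. After alpha factor 17 of 29 tested members were periodic, where 26.2% of all features were, and 14 of them followed the G1/S wave, where 7.26% of all features did. In culture B 14 of 31 were periodic (13.8% of features) and 13 followed the wave (3.93%). In culture E all 7 periodic members of 32 (5.74% of features) followed the wave (1.98%). The median amplitude of the tested members was 0.315 in the alpha-factor course, 0.258 for culture B and 0.200 for culture E, beside 0.174, 0.172 and 0.149 over all features in the same order of courses. MSH6, PMS1, OGG1, RAD5, POL32, ELG1 and RAD53 followed the wave in all 3 courses, which is 7 of the 28 members tested in each, where 1.52% of features did (75 of 4927). EXO1, RAD54, TOP3, UNG1, RAD17 and DUN1 did so in 2 courses and RAD57 in 1. The other 18 members followed it in no course, and 15 of these were periodic in none. Under quantile normalization 14 members were periodic in culture E and 12 followed the wave, and 11 members followed it in all 3 courses. With array number as a random block, 9 were periodic in culture E and 8 followed the wave. The period of culture E was uncertain. When culture E was fitted at the period of culture B, 5 members followed the wave there. The list for all 3 courses was then 5 members, without PMS1 and RAD53. Without the array at 160 min, 11 members were periodic in culture E and 10 followed it, and without the array at 135 min these counts were 16 and 14 in culture B. When each array was left out in turn, 13 of the 14 alpha-factor calls, 10 of the 13 of culture B and 6 of the 7 of culture E held in every fit.

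**Figure D2:**
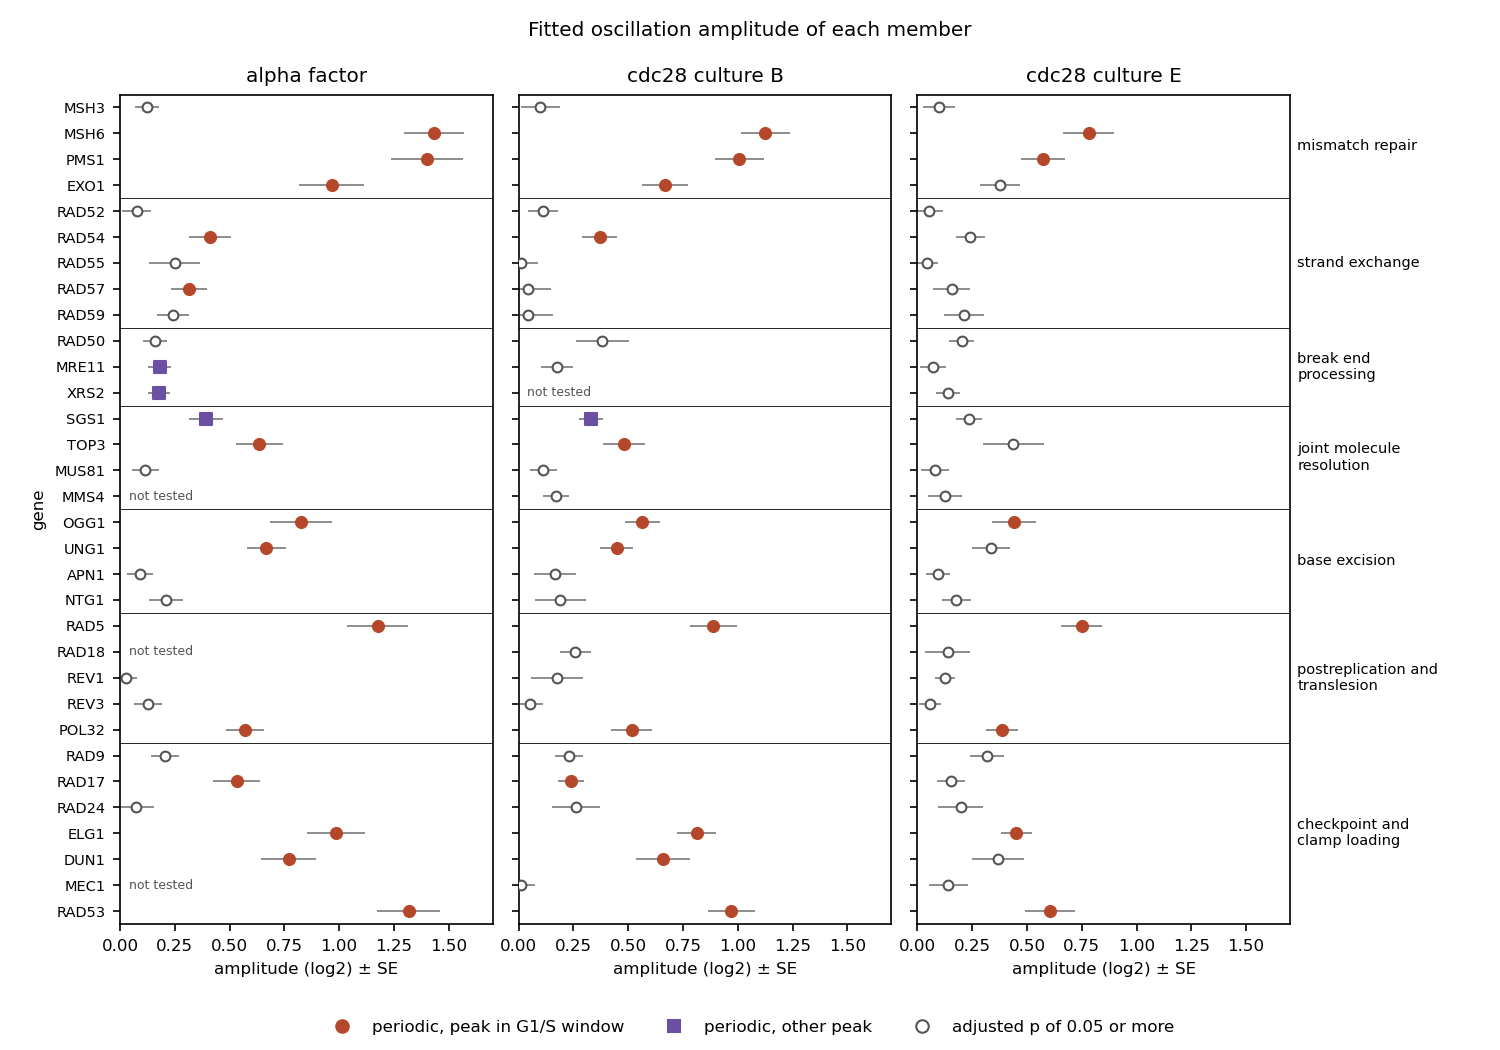
Fitted amplitude in log2 units with its standard error for each gene (rows, by branch) in each course, with filled circles for periodic genes that peak in the G1/S window, squares for periodic genes with another peak and open circles for genes that missed the threshold. MSH6, PMS1, RAD5 and RAD53 lie farthest right in each course, between 0.573 and 1.43.

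Mismatch repair had the largest median amplitude of the 7 branches in each course (1.18, 0.837 and 0.474 in the alpha-factor course, culture B and culture E), and 3, 3 and 2 of its 4 genes followed the wave. MSH6 encodes the MutS homologue that recognises single-base mismatches. After alpha factor MSH6 read 1.74, 1.49 and 0.93 at 10, 60 and 120 min and -1.52 and -1.99 at 40 and 90 min, so that it crossed the mid-log level in both directions in each cycle. In culture B it read 1.19 at 30 min and 1.24 at 150 min, with -1.17 at 90 min and -1.31 at 210 min. In culture E its highest reading was 1.08 at 30 min, and the later maximum of 0.77 at 130 min was lower. Its amplitude was 1.43 ± 0.14, 1.12 ± 0.11 and 0.78 ± 0.12 (SE, limma), with adjusted p of 2.75e-05, 4.12e-05 and 0.00253, in the alpha-factor course, culture B and culture E.

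PMS1, a MutL homologue that acts downstream of mismatch recognition, spanned -1.68 to 1.83 after alpha factor (median -0.43). It spanned -1.23 to 0.85 in culture B (median -0.39) and -1.19 to 0.47 in E (median -0.09). Its highest reading fell at 10, 150 and 40 min, beside the high arrays of MSH6. EXO1, the exonuclease that removes the mismatched strand and also resects break ends, spanned -0.59 to 1.85 after alpha factor, -0.47 to 1.30 in B and -0.59 to 0.74 in E. It followed the wave after alpha factor (amplitude 0.97 ± 0.15) and in culture B (0.67 ± 0.11, and 0.58 without the array at 135 min). In culture E its amplitude of 0.38 ± 0.09 came with an adjusted p of 0.0504, just past the threshold, and its offset of -3.20% lay inside the window. Arrays of culture E that share an array number were correlated (consensus correlation 0.628), and with array number as a random block EXO1 was called there (amplitude 0.44, adjusted p = 0.0383) and so followed the wave in all 3 courses. MSH3, the MutS homologue for larger loops, was flat beside them, with amplitudes of 0.12, 0.10 and 0.10 and adjusted p between 0.225 and 0.713. The 2 MutS homologues measured here thus had unlike profiles: MSH6 spanned -1.99 to 1.74 after alpha factor, whereas MSH3 stayed between -0.29 and 0.32.

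In strand exchange, 2 of 5 genes followed the wave after alpha factor, 1 of 5 in B and 0 of 5 in E. RAD54, a translocase that helps a broken strand find and invade its partner, read from -0.92 (50 min) to 0.29 (10 min) after alpha factor and from -0.80 (105 min) to 0.26 (45 min) in culture B. Its low readings lay farther from the mid-log level than its high ones. Its amplitude was 0.41 ± 0.10 and 0.37 ± 0.08, with adjusted p of 0.0141 and 0.0198 in limma, and the call was lost without the array at 40 min after alpha factor, and without that at 45 or 105 min in culture B. In culture E its amplitude was 0.24 ± 0.07 and its adjusted p 0.0927. RAD57 and RAD55 encode 2 partner proteins that stabilise the recombinase filament. RAD57 followed the wave after alpha factor (0.32 ± 0.08, adjusted p = 0.0246) and had an amplitude of 0.04 in culture B and 0.16 in E, and it missed the threshold in both. Without the culture B array at 135 min, where it read -0.77, its amplitude there was 0.20 ± 0.06 with an adjusted p of 0.0556 and an offset of -14.3%. RAD55 missed it in all 3 courses, although it read 0.87 at 15 min after alpha factor and 0.88 at 30 min in culture B. RAD52, which loads the recombinase, had amplitudes of 0.08, 0.11 and 0.05 and stayed between -0.36 and 0.57 on all its arrays. RAD59, a relative of RAD52 that anneals single strands, peaked away from the wave after alpha factor (offset -37.2%) with an adjusted p of 0.055. The difference between courses was not tested.

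No gene of break end processing was called with a peak in the G1/S window in any course. With 3, 2 and 3 genes tested in the alpha-factor course, culture B and culture E, this is near the background of all features. RAD50, MRE11 and XRS2 encode the subunits of the complex that binds and trims broken ends. After alpha factor MRE11 (amplitude 0.18 ± 0.05, adjusted p = 0.0497) and XRS2 (0.18 ± 0.05, adjusted p = 0.0433) were periodic, with offsets of -26.1% and -20.5%. With 1 array left out at a time, their adjusted p reached 0.131 in both, so that each call was lost without some single array. Of 9 other settings of the fit, 7 ended the call of MRE11 (adjusted p up to 0.271) and 4 that of XRS2 (up to 0.137). The M/G1 markers had a mean offset of -13.7% in that course. RAD50 missed the threshold there (adjusted p = 0.0795), with an offset of -33.5%. The amplitudes of all 3 subunits were small: MRE11 stayed between -0.30 and 0.35 and XRS2 between -0.17 and 0.39 after alpha factor. In culture B RAD50 had an amplitude of 0.38 ± 0.12 (adjusted p = 0.101), and without the array at 135 min, where it read 1.5, its amplitude was 0.18 ± 0.05 with an adjusted p of 0.0291 and an offset of -24.8%. XRS2 had too few values in culture B to be tested. In culture E the subunits had adjusted p of 0.104 (RAD50), 0.709 (MRE11) and 0.295 (XRS2).

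**Figure D3:**
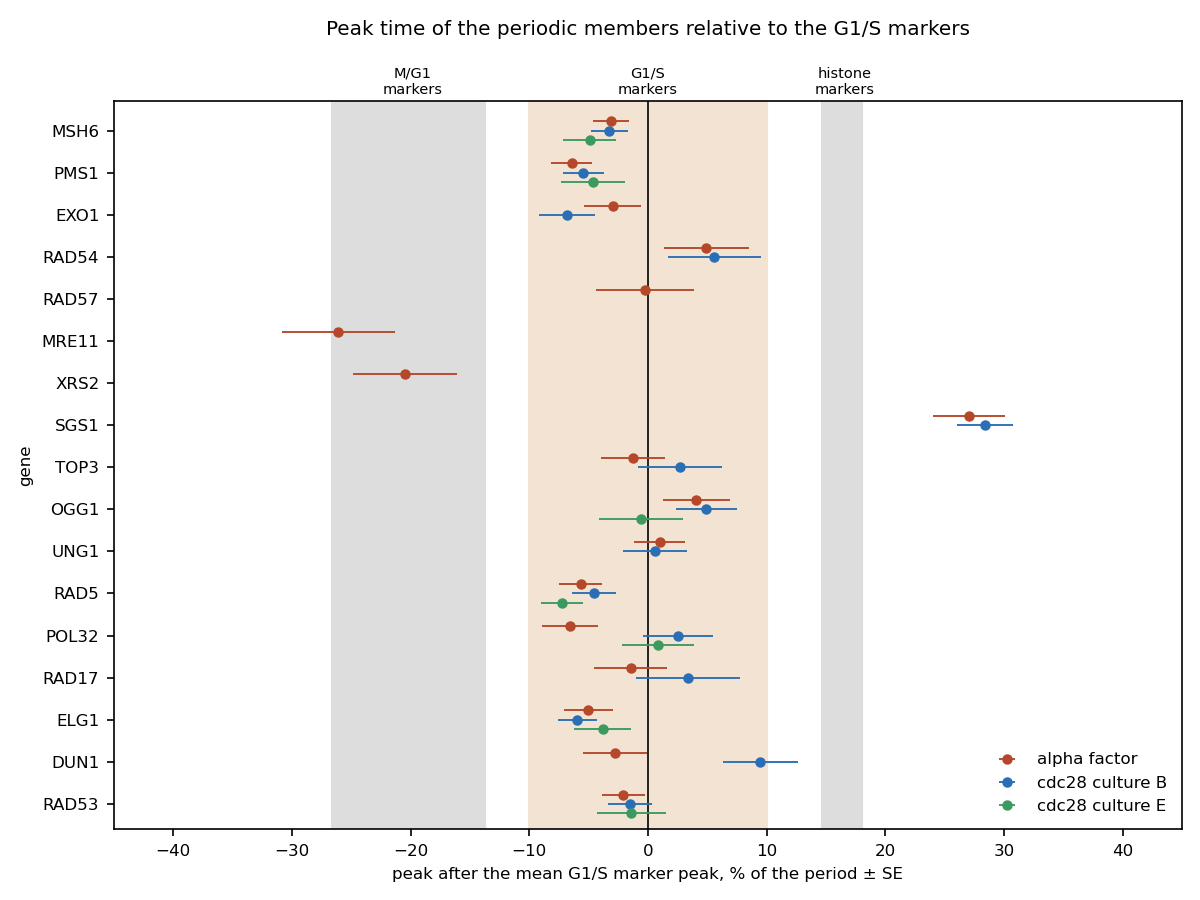
Peak time of the 17 members that were periodic in at least 1 course, as an offset from the mean G1/S marker peak in percent of the period with its standard error. The pale band is the G1/S window of 10% to either side, and the grey bands span the mean peaks of the M/G1 and histone markers over the 3 courses. MRE11 and XRS2 lie on the early side and SGS1 lies later than the histone markers.

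Among the genes that resolve joint molecules, SGS1 and TOP3 peaked at different times. Sgs1 is a helicase and Top3 a topoisomerase, and in yeast they work in 1 complex that takes apart crossed DNA strands. TOP3 followed the G1/S wave after alpha factor (0.64 ± 0.11, offset -1.26%, limma adjusted p = 0.00124) and in culture B (0.48 ± 0.10, offset 2.68%, adjusted p = 0.0129). In culture E TOP3 had an amplitude of 0.44 ± 0.14 and missed the threshold (adjusted p = 0.182), with its highest reading of 1.42 at 30 min. SGS1 read 0.86 at 20 min and 0.70 at 80 min after alpha factor, with -0.29 at 60 min and -0.35 at 110 min. The 2 genes were not opposite on every array: at 70 min SGS1 read 0.51 and TOP3 0.65, and at 120 min SGS1 read 0.35 and TOP3 0.55. In culture B SGS1 read 0.42 at 75 min and 0.58 at 180 min, and -0.33 at 0 min. Its offsets were 27.0 ± 3.0% after alpha factor and 28.4 ± 2.4% in culture B, both periodic with adjusted p of 0.00417 and 0.00208. The difference in offset between SGS1 and TOP3 was not tested. In culture E its offset was 30.0 ± 3.8% and its adjusted p 0.0558, which missed the threshold. Histone genes, which mark S phase, peaked 18%, 14.7% and 17.1% after the G1/S markers in the alpha-factor course, culture B and culture E. MUS81, the catalytic subunit of a structure-specific nuclease, was periodic in no course and had amplitudes of 0.12, 0.11 and 0.08. Its partner MMS4 had 2 probes, which were averaged, and was not tested after alpha factor because only 11 arrays gave a value. MMS4 had amplitudes of 0.17 in culture B and 0.13 in culture E, with adjusted p of 0.178 and 0.554.

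Base excision split into 2 periodic glycosylases and 2 genes that were periodic in no course. OGG1 removes oxidised guanine. After alpha factor OGG1 read -1.09 at 0 min, 1.66 at 15 min and 0.82 at 60 min, and its highest reading in the third cycle was 0.28 at 110 min. Its waves after alpha factor became smaller from cycle to cycle. In culture B OGG1 read 0.92 at 30 min and 0.53 at 165 min, and in culture E 0.68 at 30 min and 0.32 at 130 min. It followed the wave in all 3 courses, with amplitudes of 0.83 ± 0.14, 0.56 ± 0.08 and 0.44 ± 0.10 and limma adjusted p of 0.00147, 0.000956 and 0.0381. The call in culture E was lost in 10 of the 16 fits that left out 1 array, with an adjusted p of up to 0.101. UNG1 removes uracil from DNA. It followed the wave after alpha factor (0.67 ± 0.09) and in culture B (0.45 ± 0.08). In culture E its amplitude was 0.34 ± 0.09 and its adjusted p 0.0671. APN1, the main endonuclease for sites that have lost their base, and NTG1, a glycosylase for oxidised pyrimidines, had adjusted p between 0.123 and 0.521. NTG1 was highest at 0 min in both cdc28 cultures, at 0.94 in culture B and 0.75 in culture E.

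In the postreplication and translesion branch, RAD5 and POL32 followed the wave in all 3 courses. RAD5 encodes a ubiquitin ligase and helicase that directs error-free bypass of lesions. RAD5 read 1.32, 1.01 and 0.95 at 10, 60 and 110 min after alpha factor, and -1.43 and -1.27 at 40 and 90 min. In culture B it read 0.92 at 30 min and 0.81 at 150 min, with -1.07 at 90 min between them. In culture E it read 1.15 at 30 min and 0.54 at 130 min, and its low point between them was -0.56 at 80 min. Its amplitudes were 1.18 ± 0.14, 0.89 ± 0.11 and 0.75 ± 0.09, with limma adjusted p of 8.3e-05, 0.000181 and 0.000816. POL32, a subunit of DNA polymerase delta that also serves polymerase zeta, had amplitudes of 0.57 ± 0.09, 0.52 ± 0.09 and 0.39 ± 0.07. Unlike RAD5, POL32 fell below the mid-log level in culture B only at 0 min, and it spanned -0.11 to 1.35 there with a median of 0.56. REV3 and REV1, the catalytic subunit of polymerase zeta and its partner transferase, were flat. REV1 had amplitudes of 0.03, 0.18 and 0.12, and 0.13 in culture B without the array at 135 min. REV3 had amplitudes of 0.13, 0.05 and 0.06. REV3 stayed below 0 on every array that gave a value in culture B (-0.69 to -0.10) and in culture E (-0.60 to -0.18). RAD18, the ubiquitin ligase that starts postreplication repair, had values on 12 alpha-factor arrays and was not tested there. In culture B RAD18 had an amplitude of 0.26 ± 0.07, an adjusted p of 0.0536 and an offset of -12.2%. It had its highest reading of that course (0.73) on the array at 135 min, without which its amplitude was 0.20, its adjusted p 0.0973 and its offset -9.58%.

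In the checkpoint and clamp loading branch, 4 of 6 tested genes followed the wave after alpha factor, 4 of 7 in B and 2 of 7 in E. RAD53 encodes the effector kinase of the checkpoint. After alpha factor RAD53 read 1.67, 1.42 and 0.97 at 10, 60 and 110 min and -1.61 and -1.25 at 40 and 90 min. In culture B it read -1.22 at 0 min, 0.96 at 30 min and 0.89 at 165 min, and in culture E -1.22 at 0 min, 0.58 at 50 min and 0.51 at 130 min. The first G1/S maximum of RAD53 was thus the highest in each of the 3 courses. Its amplitudes were 1.32 ± 0.14, 0.97 ± 0.11 and 0.61 ± 0.11, with limma adjusted p of 7.13e-05, 0.000137 and 0.0135. ELG1, the large subunit of a clamp loader complex that takes the sliding clamp off DNA, had amplitudes of 0.99 ± 0.13, 0.81 ± 0.09 and 0.45 ± 0.07, and 0.76 in culture B without the array at 135 min.

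DUN1, a kinase that Rad53 activates and that raises nucleotide supply, followed the wave after alpha factor (0.77 ± 0.12) and in culture B (0.66 ± 0.12), where its offset of 9.48 ± 3.18% lay near the edge of the window and was 6.60% without the array at 135 min. Its peak left the window in 5 of the 16 fits of culture B that left out 1 array. RAD17, a subunit of the checkpoint clamp, followed it after alpha factor (0.53 ± 0.11) and in culture B (0.24 ± 0.06, adjusted p = 0.0406), where the call was lost in 11 of the 16 fits that left out 1 array. RAD9, the adaptor that passes the signal to Rad53, had offsets of -0.14%, -2.54% and -4.87% but adjusted p of 0.0688, 0.0629 and 0.0588, so it missed the threshold in every course. Without the culture B array at 135 min, on which RAD9 itself had no value, its adjusted p there was 0.0313 and it was called as following the wave. RAD24, which loads the checkpoint clamp, and MEC1, the sensor kinase at the head of the pathway, were periodic in no course. RAD24 had an amplitude of 0.26 in culture B, and 0.10 without the array at 135 min. MEC1 had values on 12 alpha-factor arrays and was not tested there, and its lowest readings in the cdc28 cultures fell at 30 min (-0.57 in culture B and -0.74 in culture E).

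**Figure D4:**
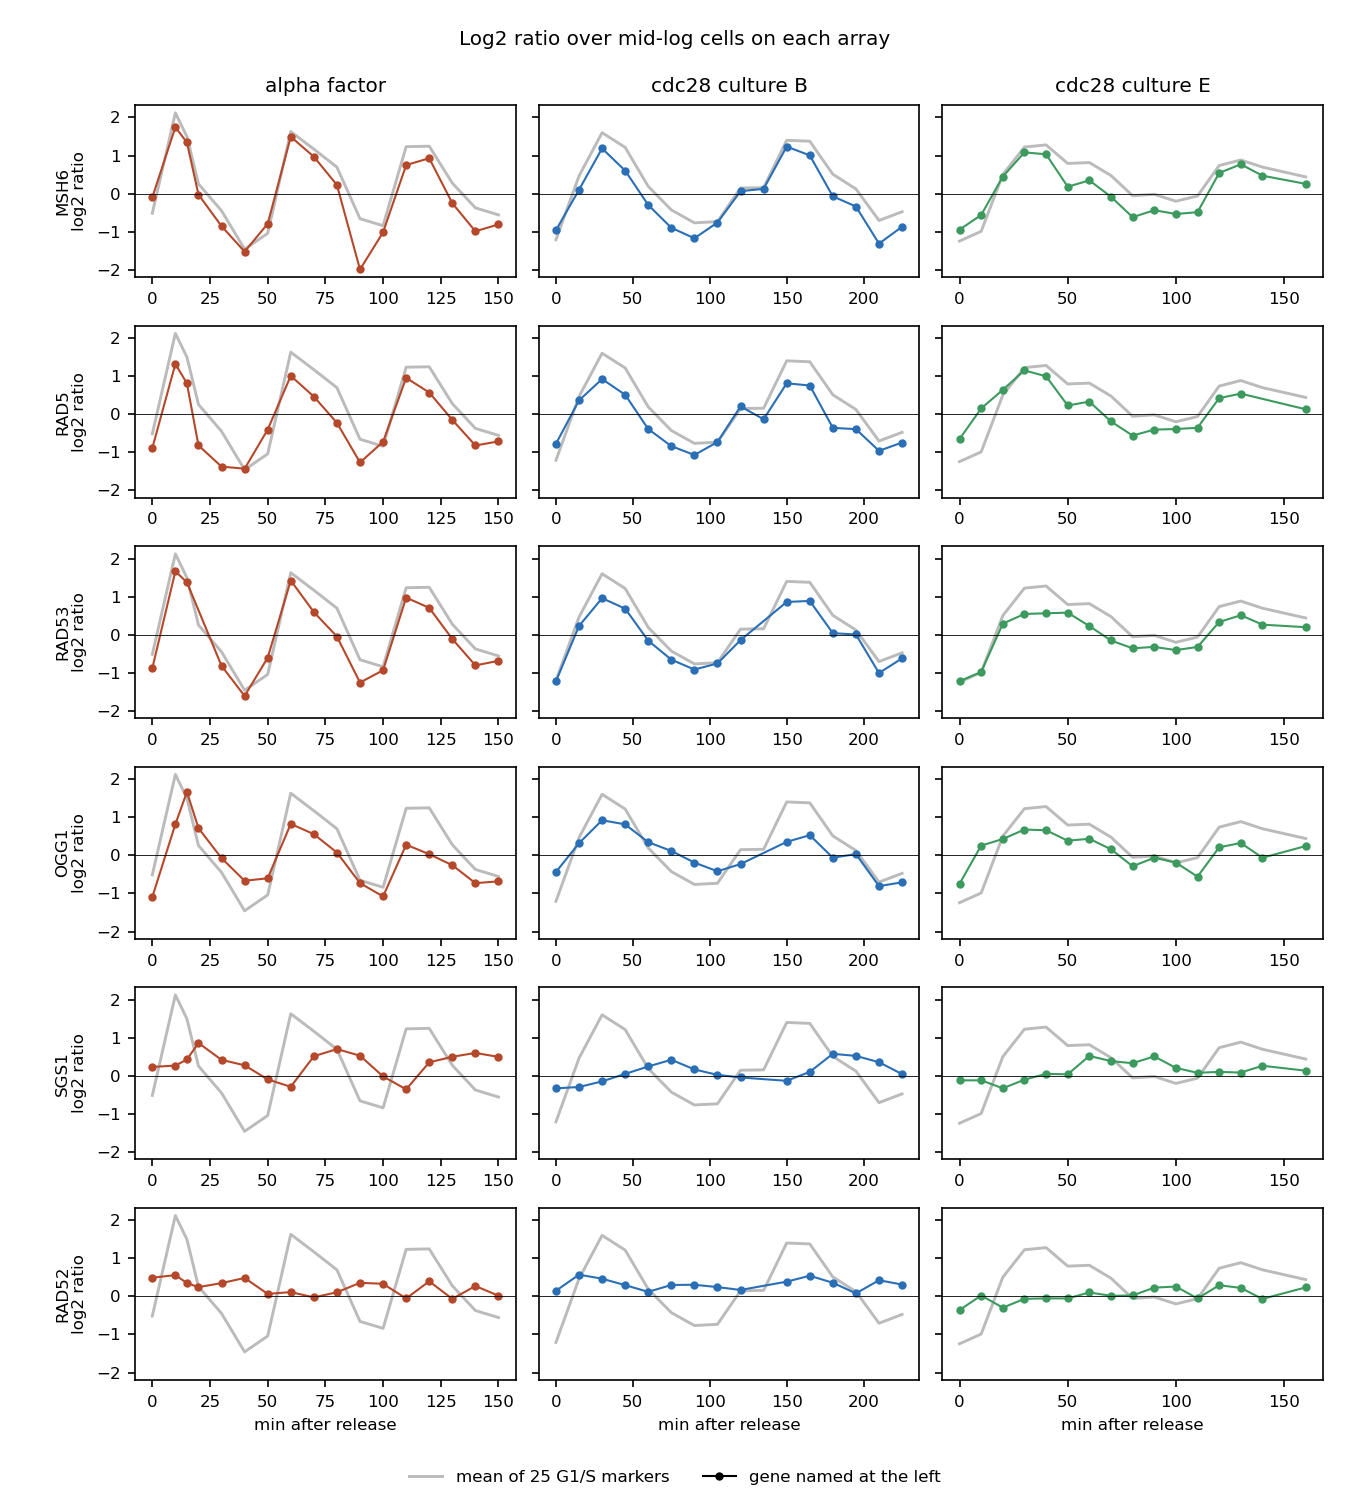
Log2 ratio over mid-log cells of MSH6, RAD5, RAD53, OGG1, SGS1 and RAD52 (rows) on each array against min after release in each course, with the mean of the 25 G1/S markers in grey. MSH6, RAD5, RAD53 and OGG1 rise and fall with the grey line, SGS1 peaks after it, and RAD52 stays between -0.36 and 0.57.

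Peak times of the members that followed the wave lay on both sides of the G1/S markers. Offsets of the 14 members that followed it after alpha factor ran from -6.58% (POL32) to 4.92% (RAD54). In culture B those of 13 members ran from -6.81% (EXO1) to 9.48% (DUN1), and in culture E those of 7 members from -7.23% (RAD5) to 0.83% (POL32). MSH6, PMS1, RAD5, ELG1 and RAD53 were called in all 3 courses and had a fitted peak before the marker mean in each. The periodic G1/S markers themselves scattered around that mean with an SD of 5.06%, 5.91% and 6.24% in the alpha-factor course, culture B and culture E. Whether these genes peak earlier than the markers was not tested. RAD5 had offsets of -5.66 ± 1.80%, -4.56 ± 1.86% and -7.23 ± 1.78% (SE) in the alpha-factor course, culture B and culture E. RAD53 lay closer to the marker mean in each course (-2.07 ± 1.78%, -1.50 ± 1.84% and -1.40 ± 2.92%). POL32 had offsets of -6.58 ± 2.33% after alpha factor, 2.57 ± 2.95% in B and 0.83 ± 3.02% in E. Differences between these offsets were not tested.

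Members called in at least 2 courses had lower fitted amplitudes in the cdc28 courses. For the 13 members that followed the wave in at least 2 courses, the amplitude in culture B was 0.451 to 0.902 of that after alpha factor (median 0.755). In culture E it was 0.288 to 0.689 of it (median 0.505), and all 13 ratios were below 1 in both cultures, although 6 of these members were not periodic in culture E. All 13 were called after alpha factor, so they were chosen in part for a high amplitude there. That choice favours ratios below 1, and the count of 13 adds no support. Over all features the median amplitude was 0.172 in B and 0.149 in E, against 0.174 after alpha factor. RAD53, for example, had 0.97 in culture B and 0.61 in E, against 1.32 after alpha factor. The median amplitude of the periodic G1/S markers was 1.39 in culture B (23 of 24 tested) and 0.722 in E (17 of 24), against 1.42 after alpha factor (23 of 24). The periodic markers of culture E were thus lower as well, although markers that missed the threshold are left out of these medians. The difference in amplitude between courses was not tested, and each course was a single culture.

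The comparison was repeated cycle by cycle, without a fitted curve, as the mean at the G1/S times minus the mean at the G2/M times in each of 6 cycles (3 of the alpha-factor culture, 2 of culture B and 1 of culture E). These times were chosen with the marker peaks of these data known. The cycles also differ in their arrays: the first alpha-factor cycle had 1 array at G2/M times and the third had 1 at G1/S times. Of 30 members with a value in each cycle, 17 were above 0 in all 6, where 11.8% of all features were. So were 23 of 24 G1/S markers, a count that the choice of times largely fixed. MSH6 was 3.06, 2.73 and 1.83 higher at G1/S times in the alpha-factor cycles, 1.86 and 2.21 in B and 1.09 in E. RAD53 was 3.13, 2.10 and 1.45 higher after alpha factor, 1.66 and 1.69 in B and 0.93 in E. For both genes the difference was smaller in each later alpha-factor cycle, and for neither was it smaller in the second cycle of culture B. MSH3, MMS4, APN1 and RAD9 were above 0 in all 6 cycles without being periodic in any course, with differences of 0.02 to 0.77. RAD59, RAD50 and REV1 were below 0 in all 6 cycles, where 11.1% of all features were, with differences of -0.01 to -0.44. This count of 3 of 30 is near the background of all features. SGS1 was below 0 in all cycles but the first after alpha factor, where it was 0.07.

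**Figure D5:**
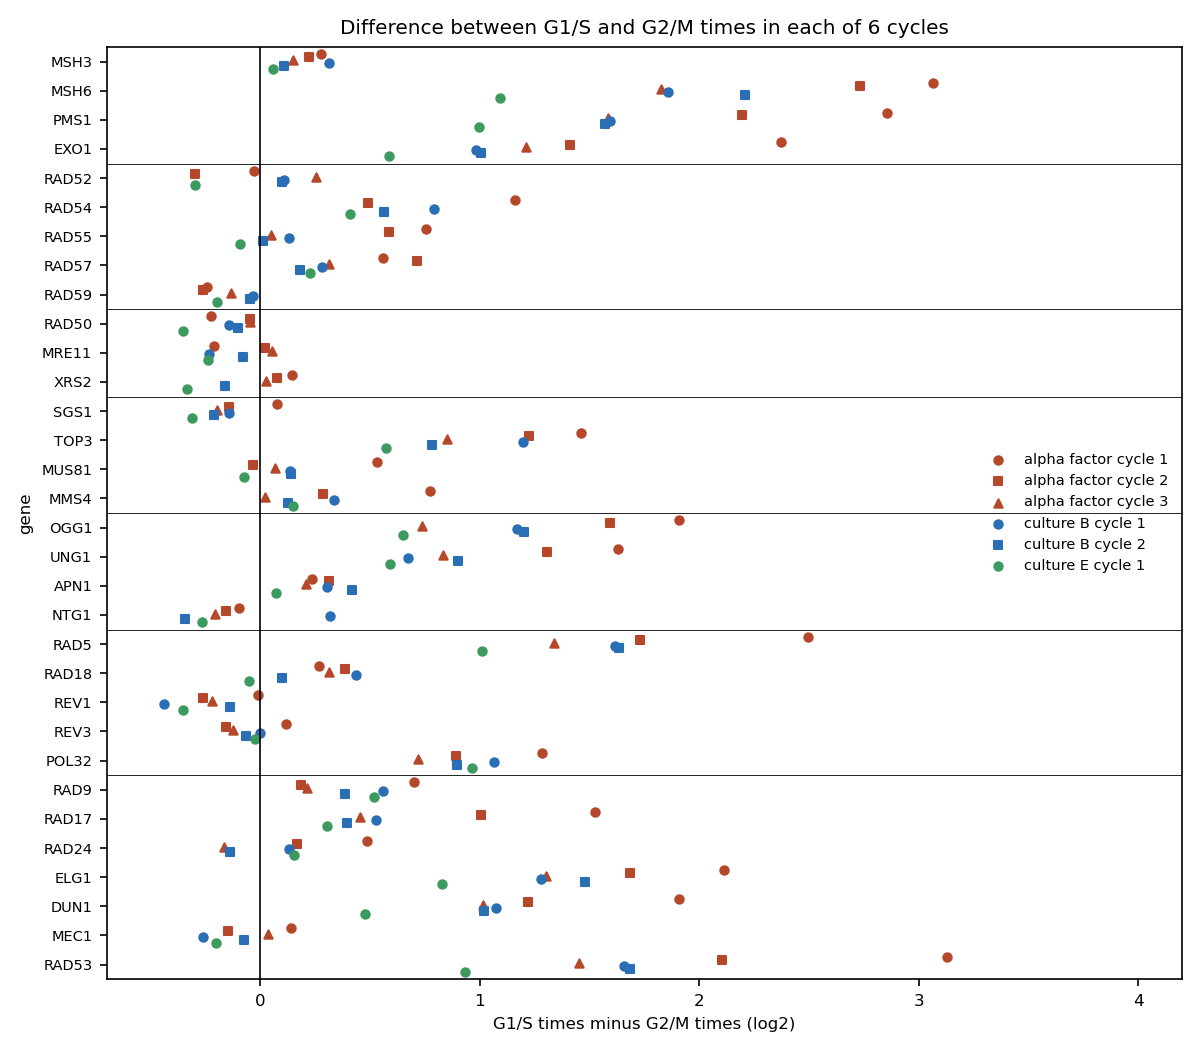
Mean log2 ratio at G1/S times minus that at G2/M times for each gene (rows, by branch) in each of 6 cycles, with colour for the course and shape for the cycle. All points of MSH6, PMS1, RAD5 and RAD53 lie right of 0, between 0.933 and 3.13, and all points of RAD59, RAD50 and REV1 lie left of 0. The share of genes with all points left of 0 is near that of all features.

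The cdc28 cultures B and E were the only replicates at shared times, which allowed a test of 30 min, near the G1/S peak, against 90 min. In a limma fit to the 15 arrays at 0, 30, 60, 90 and 120 min, 2 of 31 members were higher at 30 min, where 0.341% of all features were, and 0 were lower, where 0.431% were. At an unadjusted p under 0.05, 11 members were higher, where 4.71% of all features were, and 0 were lower, where 4.67% were. MSH6 read 1.19 and 1.08 at 30 min, against -1.17 and -0.43 at 90 min, in cultures B and E, a difference of 1.94 ± 0.33 (SE, n = 2 each, limma adjusted p = 0.0372). RAD5 read 0.92 and 1.15 at 30 min, against -1.07 and -0.40 at 90 min, a difference of 1.77 ± 0.32 (limma adjusted p = 0.0476). For both genes the 30 min and 90 min readings did not overlap, which adds no support, because the calls were made from these readings. Neither call held once any 1 of these 4 arrays was left out or under quantile normalization. With culture as a block, PMS1 (1.67, adjusted p = 0.0319) and TOP3 (1.23, adjusted p = 0.0252) were called as well, which made 4, where 0.988% of features were higher. RAD53 differed by 1.37 ± 0.30 with an adjusted p of 0.0907. The median difference of the members was 0.451, beside -0.010 over all features.

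Against the arrested cells at 0 min, 10 of 31 members were higher at 30 min in the cdc28 cultures, where 2.42% of all features were, and 0 were lower, where 2.89% were (limma, adjusted p under 0.05). They were MSH6, PMS1 and EXO1 of mismatch repair, TOP3, the glycosylases OGG1 and UNG1, RAD5, and ELG1, DUN1 and RAD53 of the checkpoint branch. RAD53 read 0.96 and 0.55 at 30 min, against -1.22 and -1.22 at 0 min, in cultures B and E, a difference of 1.97 ± 0.30 (adjusted p = 0.00789). DUN1 read 0.92 and 0.36 at 30 min, against -1.01 and -0.53 at 0 min, a difference of 1.41 ± 0.27 (adjusted p = 0.0208). MSH6 differed by 2.09 ± 0.33 (adjusted p = 0.009). In each of these genes both 30 min readings lay above both 0 min readings, which adds no support, because the calls were made from these readings. At an unadjusted p under 0.05, 15 members were higher at 30 min, where 10.5% of all features were, and 3 were lower, where 11.5% were. The lower count is near the background of all features. Those 3 were RAD59 (-0.78), NTG1 (-0.81) and MEC1 (-0.61), with adjusted p of 0.176, 0.157 and 0.176. With culture as a block 12 members were higher, with POL32 (adjusted p = 0.0298) and RAD9 (adjusted p = 0.0386) added, where 4.85% of features were higher and 6.14% lower. The number of calls rested on the array of culture E at 0 min, without which it was 0, and on the arrays at 30 min, without which it was 1 (culture B) and 3 (culture E). It was 1 under quantile normalization. Both contrasts share the 30 min arrays.

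The 2 arrests were compared at 0 min, from the 1 alpha-factor array and the 2 cdc28 arrays. Among 30 members tested, 0 were called higher and 0 lower (limma, adjusted p under 0.05), where 2.45% of all features were higher and 1.2% lower after alpha factor, and the fit with culture as a block also called 0, where 8.04% of features were higher and 5.87% lower. With no adjustment of p in limma (p under 0.05), 0 members were higher, where 12.5% of all features were, and 1 was lower, where 10.5% were. That member, RAD55, read -0.57 after alpha factor, against 0.47 and 0.16 in cultures B and E, a difference of -0.89 ± 0.34 (limma adjusted p = 0.163). MSH6 read -0.10 after alpha factor, against -0.96 and -0.94 in the cdc28 cultures, a difference of 0.86 ± 0.40 with an adjusted p of 0.242. RAD53 was low in both arrests, at -0.88 after alpha factor, against -1.22 and -1.22 in the cdc28 cultures. The median difference of the members was -0.024, beside 0.005 over all features. The spread of the single alpha-factor array was taken from the cdc28 pairs, so the missing calls do not show that the members were alike in the 2 arrests, and DUN1 and XRS2 lacked the values for this test.

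Among 49 further repair and checkpoint genes on the array, 8 of 41 tested followed the G1/S wave after alpha factor (7.26% of features), 8 of 43 in B (3.93%) and 5 of 46 in E (1.98%). RAD27, the nuclease that trims flaps in base excision and on lagging strands, had amplitudes of 1.14 ± 0.12, 1.27 ± 0.17 and 0.60 ± 0.13. MRC1, the fork protein that passes the replication stress signal to Rad53, had 1.03 ± 0.10, 0.75 ± 0.11 and 0.49 ± 0.08. RDH54, a relative of RAD54, had 0.84 ± 0.15, 0.75 ± 0.11 and 0.54 ± 0.12, so its amplitude exceeded that of RAD54 in each course. SLX4, a scaffold for structure-specific nucleases, also followed the wave in all 3 courses. TOF1, a fork protein that works with Mrc1, did so in both courses in which it was tested. LCD1, the partner of Mec1, did so in 2 of 3 with late offsets of 9.32% and 9.10%. No nucleotide excision gene was called as following the wave (8 tested in each course, not the same 8), nor was any of end joining (4, 5 and 6 tested) or of the other postreplication genes (5, 4 and 5 tested). With 7.26%, 3.93% and 1.98% of all features called in the 3 courses, a count of 0 in lists of this length is near the background. At 30 min against 0 min in the cdc28 cultures, 3 of 42 tested were higher (limma, adjusted p under 0.05), where 2.42% of all features were. They were RDH54 (1.96), RAD27 (1.93) and MRC1 (1.27). None was called lower, where 2.89% of all features were, which is near the background for a list of this length. At an unadjusted p under 0.05 in limma, 10 were higher, where 10.5% of all features were, and 6 were lower, where 11.5% were.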

How the data were processed

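Messenger RNA of synchronized yeast cells was measured on 49 dual-colour arrays against mid-log cells. The deposited values are log ratios of the authors' processed table. They were read as log2 values with synchronized cells on top because, per the labels, the synchronized cells carried Cy5 and the mid-log cells Cy3. The table states neither the log base nor the centring nor the direction of the ratio. The scanner, the normalization and the correction for background are not given in the sources used. The labels and the series text give different release temperatures for the cdc28 cultures, and none is used here.

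Gene symbols came from the platform annotation (5570 of 6258 probes with 1 symbol, 688 with none), and all 32 members matched a locus in the RefSeq gene table. Probes of 1 symbol were averaged, and each array was centred on its median. Sequences and coordinates are not used here. The 32 members, the branches, the marker lists and the lists of other repair genes were chosen with earlier results of these data known. All members are named, and of the other repair genes at most 6, those that follow the wave in most courses, by falling mean amplitude. The 5 damage reporters among the other repair genes are named besides these, after their values were seen.

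Periodicity was fitted per course with limma 3.58.1 in R 4.3.3 (intercept, linear time trend, cosine and sine), for features measured on at least 80% of a course's arrays. The period was searched from 40 to 160 min on a grid of 1 min, for the highest median R2 gain across the G1/S, histone, G2/M and M/G1 markers. Serial arrays of 1 culture gave the residual spread, so p-values measure the scatter within that culture. The culture E period was uncertain, since the gain was 0.482 at 106 min and 0.456 at the culture B period. Contrasts used 10 groups of arrest and time on 15 arrays, with 5 residual and 4.21 prior degrees of freedom, two-sided tests and Benjamini-Hochberg adjustment over all features. Alternatives were another period, trend, window, normalization and filter, the array position, culture as a block and leaving out each array. Scripts were tested on simulated data.

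Per the labels, B and E name the same culture at every time, so cultures pair the cdc28 arrays. Deviations of the same culture correlated at 0.593 between 30 and 90 min and at -0.0152 between 0 and 30 min, over all features.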

Additional observations from a re-analysis of the deposited data

How the results depend on the processing

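Over the alternatives other than leaving out arrays of a course, the 38 periodic calls of single members held in 310 of 337 fits, and 54 results that had missed the threshold passed it in 24 of 494. In the contrasts, left-out arrays included, the 2 calls at 30 against 90 min were lost in 10 of 18 fits and the 10 calls against 0 min in 38 of 89, with 0 called differences reversed. An amplitude has no sign. After alpha factor a period 10% shorter left 10 periodic members, against 17 (215 of all features, against 1404). In culture B a filter to genes with values on every array left 19 members, of which 7 were periodic and 7 followed the wave, and a window of 5% left 8 following. In culture E quantile normalization gave 14 periodic and 12 following members, and leaving out 1 array at a time gave 6 to 11 periodic, with 11 without the array at 160 min. The number following the wave in all 3 courses was 11 after quantile normalization, 4 under the filter to complete genes and 3 with a window of 5%. With culture E at the period of culture B it was 5. Higher at 30 than at 90 min were 4 members with culture as a replicate block, 0 with quantile normalization and 0 when any 1 of the 4 arrays was left out (0 to 0). Against 0 min, 1 member was called with quantile normalization, 12 with the replicate block and 0 to 8 when 1 array was left out, with 0 without culture E at 0 min, 1 without culture B at 30 min, 3 without culture E at 30 min and 8 without culture B at 0 min. The cause of these changes was not tested, except that fewer genes were tested with values on every array, and with 1 array left out the lone array is assumed to vary like the other groups. The replicate block changed no call at 0 min between arrests, where 0 members were called. Array number as a random block had consensus correlations of 0.0267, 0.13 and 0.628 after alpha factor, in culture B and in culture E.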

Other observations

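Of 5 damage-inducible reporter genes at 0 min, 3 were called higher after alpha factor than in the cdc28 arrest in limma, where 2.45% of all features were. They are named here after their values were seen. The alpha-factor side is 1 array, whose spread was taken from the cdc28 pairs. PHR1, the photolyase that reverses ultraviolet damage, read 0.78 after alpha factor, against a mean of -1.06 in the cdc28 cultures (difference 1.84 ± 0.27, adjusted p = 0.00964). RNR2, a small subunit gene of ribonucleotide reductase, read 0.92 after alpha factor, against a mean of -0.63 in the cdc28 cultures (difference 1.55 ± 0.29, adjusted p = 0.0257). RNR4, the other small subunit gene, read 1.51 after alpha factor, against a mean of -0.25 in the cdc28 cultures (difference 1.76 ± 0.39, adjusted p = 0.0417). RNR3 (1.33, adjusted p = 0.376) and DIN7 (0.60, adjusted p = 0.33) missed the threshold. The calls of RNR4 and RNR2 did not hold in every fit that left out 1 cdc28 array, and that of RNR4 was lost in most of them. Without the culture B array at 0 min the difference was 1.39 for RNR2 and 2.19 for RNR4, and without that of culture E it was 1.71 and 1.33. Under quantile normalization 0 of the 5 were called, with an adjusted p of 0.0596 for PHR1, 0.12 for RNR2 and 0.2 for RNR4, and the calls over all features fell to 13, against 204.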
